A study of Caenorhabditis elegans with 12 samples.

Results

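The histone genes of Caenorhabditis elegans were taken as the 72 consecutive WormBase identifiers WBGene00001875 to WBGene00001946, numbered as his-1 to his-72. The deposited counts held 71 of them, of 20134 gene identifiers and 55259 genomic intervals in all, and his-23 was the one not present. The identifiers are not paired with symbols in the tables used here, so each symbol rests on that numbering. By histone class the block held 1 gene for the linker histone H1, 18 for H2A, 17 for H2B, 15 for H3, 4 of the H3.3 variant group and 16 for H4.

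The core histones H2A, H2B, H3 and H4 form the core around which DNA is wrapped, and H1 binds the linker DNA between cores. Most worm histone genes are replication-dependent: they lie in clusters, their products are deposited during DNA synthesis, and many copies are near-identical, whereas H3.3 genes encode replacement variants used outside replication. CSR-1 and WAGO-1 are Argonaute proteins that carry small RNAs antisense to transcripts, made by RNA-dependent RNA polymerases. CSR-1 is known for binding small RNAs against germline-expressed genes and for a part in histone mRNA processing, and WAGO-1 is known for binding small RNAs against silenced genes.

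Small RNA was sequenced from immunoprecipitates (IPs) and from the matching inputs of staged L4 whole worms grown at 15 °C, with 3 libraries, lettered A, B and C, in each of 4 groups. The WAGO-1 P3G IPs and WAGO-1 P3G inputs came from animals with the genotype WAGO-1::FLAG P3G and WAGO-3 P2G A3E. The CSR-1 IPs and CSR-1 inputs came from 1xFLAG::CSR-1 animals. Both IPs used anti-FLAG beads, and RNA of all 4 groups was treated with a polyphosphatase before library preparation. Small RNA was enriched with a kit for the inputs and not for the IPs, so an IP-to-input difference and that step cannot be told apart. Between the strains, the tagged protein and the WAGO-1 and WAGO-3 substitutions differ together, and IPs of unmodified WAGO-1, untagged animals and wild-type animals were not analysed here. The labels do not say whether the letters stand for separate cultures, so p-values measure the spread between these libraries. In whole worms, fewer cells of a type and less small RNA per cell cannot be told apart, and marker genes could not be used to check the tissue, because identifiers are not paired with symbols here.

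Counted reads, those assigned to an identifier or interval, numbered 7403373 to 9187525 in the WAGO-1 P3G IPs, 334088 to 355028 in the WAGO-1 P3G inputs, 2405005 to 4908321 in the CSR-1 IPs and 373033 to 533232 in the CSR-1 inputs. Summed over a group's 3 libraries, the median histone identifier had 308 counts in the WAGO-1 P3G IPs, 32 in the WAGO-1 P3G inputs, 36 in the CSR-1 IPs and 11 in the CSR-1 inputs. In the CSR-1 inputs 34 members had under 10 counts in all, so values of single members there carry large counting error. CSR-1 IP A stood apart from CSR-1 IP B and C over all features, with a chi-square per degree of freedom of 8.68 and 7.38, against 1.57 between B and C. Counting error alone would give about 1. CSR-1 input A had 2.26 and 1.72 against CSR-1 inputs B and C, and those had 1.16 between them. The value was 1.11 to 1.21 between WAGO-1 P3G inputs and 1.57 to 2.67 between WAGO-1 P3G IPs. Levels below are CPM (counts scaled to a library of 1000000 counted reads), as mean ± SD over 3 libraries. Fold changes are log2 values with an approximate SE from edgeR's quasi-likelihood test, which rescales libraries by trimmed mean of M values (TMM), and a member was called where the adjusted p over all 10822 tested features was under 0.05. The filter on low counts kept 64 of the 71 members. It left out his-6, his-17, his-28, his-30, his-33, his-69 and his-71, which had 8 to 181 counts each over all 12 libraries. Of the tested members, 9 reached the filter level of 6.81 CPM in all 3 libraries of the WAGO-1 P3G inputs alone and 1 in those of the WAGO-1 P3G IPs alone. The filter asks for that level in any 3 libraries. Of those 10, his-2, his-7, his-12, his-21, his-29, his-50 and his-51 met it only with the WAGO-1 P3G inputs, which favoured higher values there. His-19 and his-42, set apart by the inputs, and his-41, set apart by the IPs, also met it from libraries of other groups. Counts over the tested members cannot stand for the whole block. Counts are therefore also given for the other 54, a choice made after the data were seen. Sums over all 71 members use no filter. Reads of near-identical copies may have been split among them or placed on one of them, since no source at hand states how such reads were assigned.

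The whole block summed to 4327 ± 252 CPM in the WAGO-1 P3G IPs, 4442 ± 247 CPM in the WAGO-1 P3G inputs, 1057 ± 117 CPM in the CSR-1 IPs and 4099 ± 393 CPM in the CSR-1 inputs. The CSR-1 IPs lay below all other libraries. One gene, his-24, which encodes a linker histone H1 and lies on chromosome X at 14490094 to 14491119 (ce11), held 62.0% ± 0.380 of the block's counts in the WAGO-1 P3G IPs, 34.1% ± 1.22 in the WAGO-1 P3G inputs, 58.3% ± 2.02 in the CSR-1 IPs and 76.3% ± 1.35 in the CSR-1 inputs (SD, n = 3 each). Per kilobase of its RefSeq span it stood at 3053 CPM in the CSR-1 inputs, against 149 CPM for his-35 and 174 CPM for his-67 on the same scale. Because 1 gene carried so much of the sum, the block is given below with and without it. The other 70 identifiers summed to 1642 ± 79.4 CPM in the WAGO-1 P3G IPs, 2928 ± 148 CPM in the WAGO-1 P3G inputs, 440 ± 38.6 CPM in the CSR-1 IPs and 967 ± 39.4 CPM in the CSR-1 inputs. These 4 ranges did not overlap. The sum without his-24 was chosen after its values were seen.

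**Figure D1:**
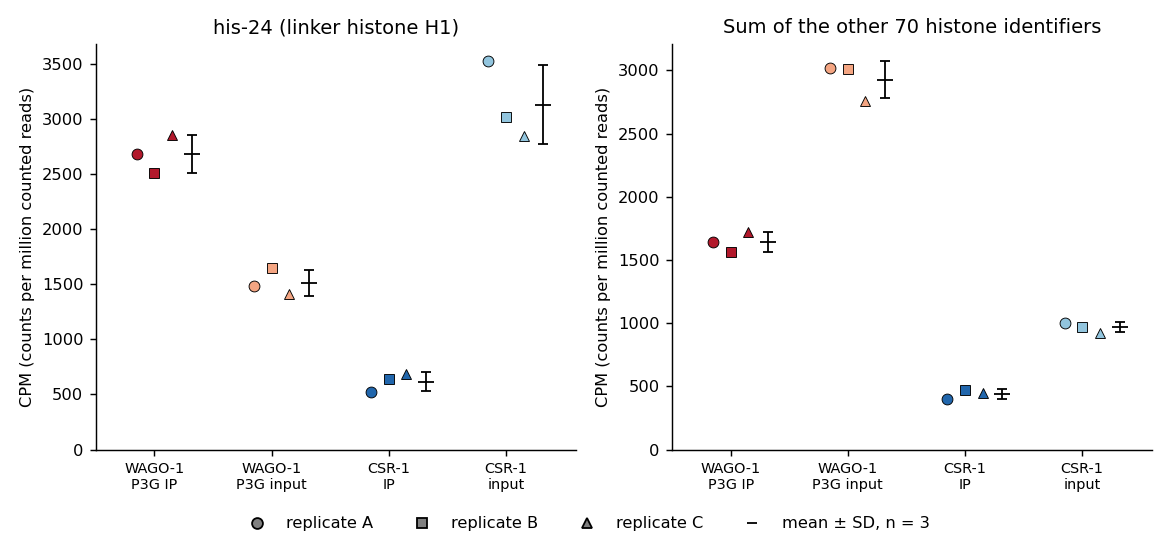
CPM of his-24, left, and of the other 70 histone identifiers summed, right, in each library of the 4 groups, with mean ± SD beside the points. In the left panel the WAGO-1 P3G IPs, at 2512 to 2858 CPM, and the CSR-1 inputs, at 2847 to 3532 CPM, touch at their edges, and the other 70 are highest in the WAGO-1 P3G inputs, at 2758 to 3018 CPM.

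The inputs asked how much histone small RNA the animals of each strain held before any IP. Without his-24 the block was 3.03 times as high in the WAGO-1 P3G inputs as in the CSR-1 inputs, and with it 1.08 times. On all reads of a library, uncounted ones included, those ratios were 1.88 and 0.672, so the direction of the whole block turned and that of the other 70 did not. Uncounted reads made up 72.8% to 74.1% of the WAGO-1 P3G inputs and 53.9% to 59.4% of the CSR-1 inputs. On counted reads every core class was higher as a sum. H3 summed to 813 ± 56.0 CPM in the WAGO-1 P3G inputs against 179 ± 12.6 CPM in the CSR-1 inputs, a ratio of 4.54. The ratio was 3.65 for H2B, with 684 ± 53.6 against 187 ± 26.4 CPM, and 2.99 for H4, with 895 ± 59.5 against 300 ± 63.5 CPM. H2A differed less, with 401 ± 21.9 CPM in the WAGO-1 P3G inputs against 209 ± 2.88 CPM in the CSR-1 inputs. The H3.3 group summed to 134 ± 15.4 CPM against 92.2 ± 9.98 CPM, and none of these 5 sums overlapped between the strains' inputs.

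**Figure D2:**
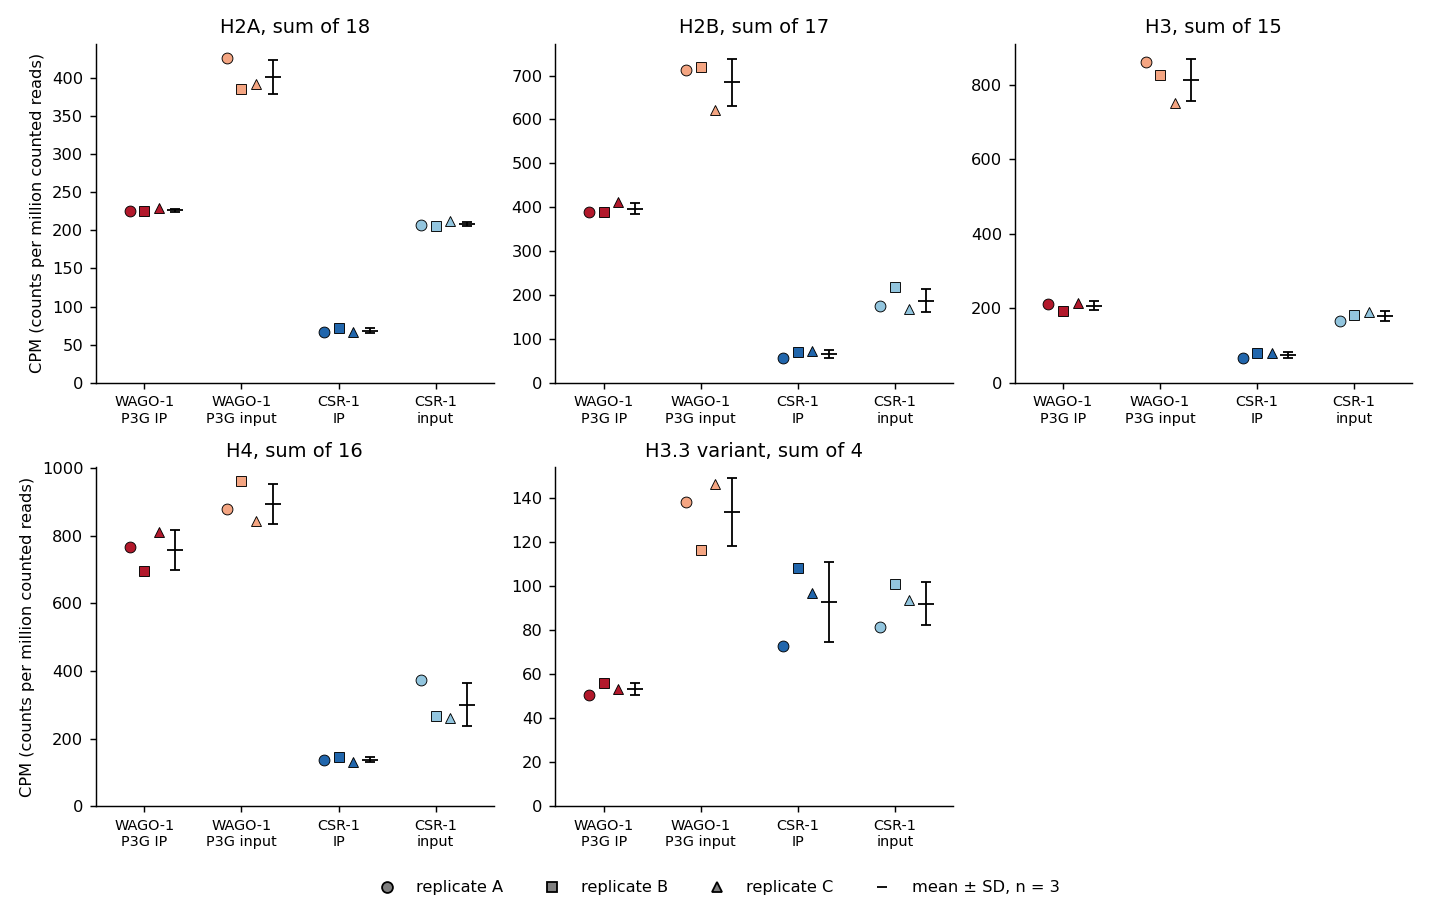
CPM summed over the identifiers of each histone class, H1 apart, in each library of the 4 groups, with mean ± SD beside the points. H3 in the WAGO-1 P3G inputs, at 752 to 862 CPM, lies above its other groups, and the CSR-1 IPs are the lowest group for H2A, H2B, H3 and H4.

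By gene, 45 of the 64 tested members were called higher in the WAGO-1 P3G inputs and 2 lower, against 19.7% and 18.7% of all tested features, and the median log2 was 1.71 against 0.03 over all features. Without the 10 members that reached the filter level in all 3 libraries of 1 group alone, 41 of 54 were called higher and 2 lower, with a median log2 of 1.77. The 54 still hold members that met the filter only through the WAGO-1 P3G groups, which favoured higher values. Of all tested members, called higher were 11 of 13 tested H3 genes, 14 of 17 H2B genes, 10 of 15 H4 genes and 9 of 16 H2A genes. Within the 54, these were 10 of 11 H3 genes, 13 of 15 H2B genes, 10 of 14 H4 genes and 7 of 11 H2A genes. The H3 gene his-9 had 191, 174 and 141 CPM in WAGO-1 P3G inputs A, B and C, against 49.4, 39.4 and 26.8 CPM in CSR-1 inputs A, B and C. All of its WAGO-1 P3G inputs lay above all of its CSR-1 inputs, with a log2 of 2.03 ± 0.23 (edgeR, adjusted p = 8.25e-08). The H3 gene his-45 had 144, 141 and 121 CPM against 12.4, 13.1 and 26.8 CPM in CSR-1 inputs A, B and C. Its groups did not overlap either, and its log2 was 2.92 ± 0.28. His-13, a further H3 gene, was higher by 1.79 ± 0.24, and the H2B gene his-48 by 2.95 ± 0.34.

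The largest fitted values in this comparison came from members close to zero in the CSR-1 inputs. The H2A gene his-51 had 15 counts over the WAGO-1 P3G inputs and 1 over the CSR-1 inputs, a ratio of 19.1 per counted read with an exact 95% counting interval of 2.94 to 805. The H2B gene his-29 had 12 and 1 counts, a ratio of 15.3 with an interval of 2.26 to 654. Both genes passed the filter through the WAGO-1 P3G inputs alone and were named as the largest values, so a ratio above 1 was set by that choice, and the intervals show only how loosely its size is known.

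The 2 members called lower in the WAGO-1 P3G inputs were his-24 and the H2A gene his-35. His-24 had 1483, 1646 and 1414 CPM in WAGO-1 P3G inputs A, B and C, against 3532, 3017 and 2847 CPM in the CSR-1 inputs. The groups were apart, with a log2 of -1.13 ± 0.11 (edgeR, adjusted p = 3.78e-09). His-35 had 70.6, 68.8 and 62.0 CPM in the WAGO-1 P3G inputs and 116, 88.1 and 77.7 CPM in the CSR-1 inputs. Its log2 of -0.57 ± 0.20 was near the threshold (edgeR, adjusted p = 0.0293), and the call ended in 7 of 20 alternatives, among them leaving out WAGO-1 P3G input C or CSR-1 input A. The H4 gene his-38 had the second lowest fitted value, -0.65 ± 0.81, and was not called (edgeR, adjusted p = 0.559), with 9 counts in the WAGO-1 P3G inputs and 17 in the CSR-1 inputs.

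A feature of the annotation went along with this split. For 63 members the RefSeq span is close to the commonest span of its class or shorter, and these are called coding-length here. The spans are mostly 312 bp for H4, 411 bp for H3, 384 bp for H2A and 372 bp for H2B. His-39, an H2B gene with a span of only 204 bp, is among the 63. The set called longer holds 7 members: his-24, his-35, his-37, his-41, his-57, his-71 and his-72. As the only H1 gene, his-24 sets the commonest span of its class, 1026 bp, and was placed in this set by choice. His-36 has no RefSeq entry here. Of the coding-length members 43 of 57 tested were called higher in the WAGO-1 P3G inputs and 0 lower, against 19.7% and 18.7% of all tested features. The 43 include his-7, his-29 and his-51, which met the filter only with these inputs, and no count was made without such members. Of the longer ones 1 of 6 tested was called higher, the H2A gene his-57 with a log2 of 1.96 ± 0.49. The 2 called lower were his-35 and his-24, the latter in the set by choice. Summed, the coding-length members had 2697 ± 143 CPM in the WAGO-1 P3G inputs against 735 ± 17.8 CPM in the CSR-1 inputs. The split was noticed after the values were seen, and whether a longer annotated span changes how reads are counted was not tested.

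CSR-1 IPs were then set against CSR-1 inputs, which asks which histone small RNAs CSR-1 carried relative to the starting material. The block took 0.258 times its share of counted reads in the CSR-1 IPs as in the CSR-1 inputs, and 0.455 times without his-24. On all reads those ratios were 0.449 and 0.795. Each core class was lower as a sum. H2A had 68.1 ± 3.29 CPM in the CSR-1 IPs against 209 ± 2.88 CPM in the CSR-1 inputs, H2B 66.4 ± 9.07 against 187 ± 26.4 CPM, H3 74.6 ± 7.80 against 179 ± 12.6 CPM and H4 138 ± 7.10 against 300 ± 63.5 CPM. The H3.3 group did not follow, with 92.9 ± 18.2 CPM in the CSR-1 IPs and 92.2 ± 9.98 CPM in the CSR-1 inputs, and the groups overlapped.

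Of the 64 tested members 29 were called lower and 2 higher in the CSR-1 IPs, against 33.6% and 37.5% of all tested features. Without the members set apart by the filter, 25 of 54 were lower and 2 higher. The median log2 was -1.09, against -0.08 over all features. Lower were 11 of 17 tested H2B genes, 6 of 16 H2A genes, 5 of 13 H3 genes and 5 of 15 H4 genes. His-24 had 523, 642 and 686 CPM in CSR-1 IPs A, B and C, against 3532, 3017 and 2847 CPM in CSR-1 inputs A, B and C. It was far below its input in every library, with a log2 of -1.93 ± 0.10 (edgeR, adjusted p = 4.23e-14). The H2B gene his-22 stood at 4.03 ± 0.271 CPM in the CSR-1 IPs and 24.3 ± 2.86 CPM in the CSR-1 inputs, a log2 of -2.13 ± 0.32. The H2B genes his-39 and his-44 had the lowest fitted values, -2.52 ± 0.86 and -2.14 ± 0.59, and both rest on few counts. The H4 genes his-60 and his-67 were lower, at -1.36 ± 0.23 and -0.73 ± 0.21. The call of his-67 ended in 2 of 20 alternatives, among them leaving out CSR-1 input A. That of the H2B gene his-4 (-1.40 ± 0.31) ended in 1 of 20, without CSR-1 input B.

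His-72, an H3.3 gene on chromosome III at 12367475 to 12369050 (ce11), went the other way. It had 66.6, 97.3 and 88.9 CPM in CSR-1 IPs A, B and C, against 66.7, 58.1 and 40.2 CPM in the CSR-1 inputs. On CPM the groups touched, since CSR-1 IP A, the library that stood apart, matched CSR-1 input A. The fit called it higher, with a log2 of 1.00 ± 0.19 (edgeR, adjusted p = 4.52e-05), in 19 of 20 alternatives too, the exception being counts thinned to the smallest library (0.21, adjusted p = 0.492). His-70, also of the H3.3 group, was called lower, at -1.81 ± 0.35, so the near-equal H3.3 sums hold members called in opposite directions. His-71, the H3.3 gene with the next highest level, had 37 counts in the WAGO-1 P3G IPs, 6 in the WAGO-1 P3G inputs, 9 in the CSR-1 IPs and 4 in the CSR-1 inputs, too few to be tested. The other called-higher member, the H4 gene his-18 with a log2 of 1.05 ± 0.45 (edgeR, adjusted p = 0.0422), had 9 counts in the CSR-1 inputs and lost the call in 13 of 19 alternatives.

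WAGO-1 P3G IPs were set against WAGO-1 P3G inputs in the same way. The block's log2 ratio was -0.04 on CPM, 0.55 for the TMM-scaled sum and 1.31 on all reads, and without his-24 it was -0.83, -0.25 and 0.51, so the direction of either sum depended on scaling. Of the 6 classes, H1 had the highest ratio of IP to input CPM, 1.77, and H3 the lowest. His-24 had 2687, 2512 and 2858 CPM in WAGO-1 P3G IPs A, B and C, against 1483, 1646 and 1414 CPM in the WAGO-1 P3G inputs. Every IP lay above every input, with a log2 of 1.42 ± 0.10 (edgeR, adjusted p = 2.56e-11). H3 was lowest relative to input, with 207 ± 11.6 CPM in the WAGO-1 P3G IPs and 813 ± 56.0 CPM in the WAGO-1 P3G inputs, a ratio of 0.255. H2A had 227 ± 1.96 against 401 ± 21.9 CPM, H2B 396 ± 12.7 against 684 ± 53.6 CPM, and the H3.3 group 53.3 ± 2.83 against 134 ± 15.4 CPM. The TMM-scaled log2 of the H2A and H2B sums was -0.24 and -0.20, against -0.83 and -0.79 on CPM. For H4 the direction depended on scaling: its CPM sum was lower, at 759 ± 58.2 against 895 ± 59.5, while the TMM-scaled log2 of the summed counts was 0.35.

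Of the tested members 7 were called higher and 26 lower, against 34.1% and 33.4% of all tested features, with a median log2 of -0.57 against 0.12. Scaling moved these counts: on library totals alone 3 were higher and 43 lower, and the median of all features shifted to -0.48. The count of lower calls was also unstable to single libraries: it was 15 to 17 without any one WAGO-1 P3G IP, 8 to 11 without any one WAGO-1 P3G input and 13 without any one CSR-1 input, where 49 or 69 members were tested. Without the members that reached the filter level in all 3 libraries of 1 group alone, 7 of 54 were higher and 21 lower. Among H3 genes 11 of 13 were lower and 0 higher, among H4 genes 2 of 15 were lower and 4 higher. Within the 54, these counts were 9 of 11 lower and 0 higher for H3, and 2 of 14 lower and 4 higher for H4. His-9 had 30.6, 30.4 and 31.2 CPM in WAGO-1 P3G IPs A, B and C, against 191, 174 and 141 CPM in the WAGO-1 P3G inputs. Its IPs were nearly equal and far below the inputs, with a log2 of -1.86 ± 0.17 (edgeR, adjusted p = 1.14e-09). His-13 was lower, at -1.73 ± 0.18, his-25, another H3 gene, at -1.98 ± 0.25, and his-45 at -1.28 ± 0.17. The H2A gene his-51 had the lowest value, -2.11 ± 0.50, which its passing the filter through these inputs alone favoured. The H2A gene his-3 was at -1.19 ± 0.27.

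Next to his-24, the largest called increases were those of his-35 and the H4 gene his-67. His-35 had 110, 105 and 102 CPM in the WAGO-1 P3G IPs, against 70.6, 68.8 and 62.0 CPM in the WAGO-1 P3G inputs, and a log2 of 1.25 ± 0.17. His-67 had 206, 184 and 208 CPM against 115, 180 and 146 CPM, and a log2 of 1.04 ± 0.15. Both genes had all IPs above all inputs. The increases of his-4 (0.74 ± 0.20) and of the H4 gene his-64 (0.52 ± 0.18) depended on the TMM scale: on library totals his-4 was not called and his-64 stood at -0.08. His-60 was not called, at 0.33 ± 0.15 (edgeR, adjusted p = 0.0587), but was called in 17 of 20 alternatives.

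**Figure D3:**
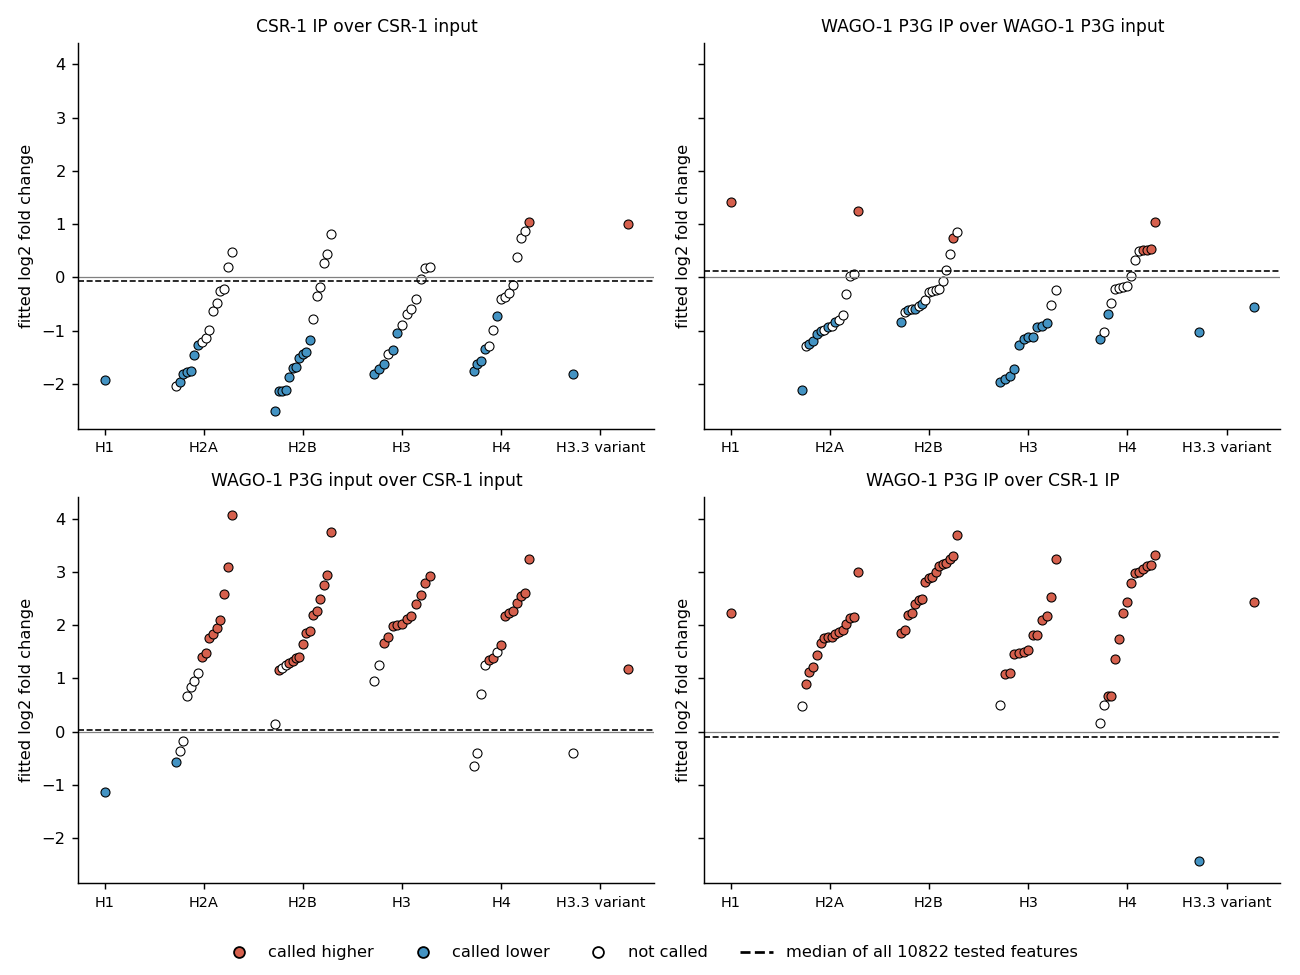
Fitted log2 fold changes of the 64 tested histone genes by class in 4 comparisons, with called genes filled and the dashed line at the median of all 10822 tested features. Most points lie above that line in WAGO-1 P3G input over CSR-1 input and in WAGO-1 P3G IP over CSR-1 IP, and his-72, at -2.43, is the only one called lower in the IP comparison.

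Set against each other, the IPs differed for nearly every tested member. The block was 4.09 times as high in the WAGO-1 P3G IPs as in the CSR-1 IPs, and 3.73 times without his-24. Of 64 members, 59 were called higher in the WAGO-1 P3G IPs and 1 lower, against 42.3% and 44.5% of all tested features, and the median log2 was 2.12 against -0.09. Without the members set apart by the filter, 51 of 54 were higher and 1 lower. Members that met the filter only through the WAGO-1 P3G groups remain among the 54, which favoured higher values. All 17 tested H2B genes were called higher, as were 15 of 16 H2A, 12 of 13 H3 and 13 of 15 H4 genes. The class sums were 5.97 times as high for H2B, 5.50 for H4, 3.32 for H2A and 2.78 for H3. His-60 had 142, 129 and 152 CPM in WAGO-1 P3G IPs A, B and C, against 13.0, 14.1 and 18.1 CPM in the CSR-1 IPs. Its log2 of 3.32 ± 0.15 was among the largest, beside 3.69 ± 0.42 for his-39. The exception was his-72, with 14.2, 14.7 and 14.4 CPM in the WAGO-1 P3G IPs against 66.6, 97.3 and 88.9 CPM in the CSR-1 IPs. Its groups were far apart, with a log2 of -2.43 ± 0.14 (edgeR, adjusted p = 1.9e-14).

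The inputs of the strains differed too, so the IP-over-input values were compared between strains by their interaction, the WAGO-1 P3G enrichment minus the CSR-1 enrichment. For the TMM-scaled sum of the block this difference was 2.10 in log2, and 0.49 without his-24. By gene it was called higher for 17 of 64 members and lower for 6, against 33.9% and 40.0% of all tested features, with a median of 0.35 against -0.34. Calls in either direction, 23 of 64, thus made up a smaller share than the 73.9% of all tested features. Whether the low input counts of histone genes made for fewer calls was not tested. Without the members set apart by the filter, 16 of 54 were higher and 6 lower. All 5 comparisons share libraries, and their values are given side by side and not as independent evidence. His-24 had the largest difference, 3.35 ± 0.15, followed by the H2B gene his-41 at 2.96 ± 0.73 and his-35 at 2.71 ± 0.24. His-41 reached the filter level in all 3 libraries of the WAGO-1 P3G IPs alone. H2B had 9 called higher and 1 lower, H4 had 5 and 2, and H3 had 0 and 2. Thus for his-9 the difference was -0.49 ± 0.30 and was not called (edgeR, adjusted p = 0.144), while its IP comparison gave 1.54 ± 0.17 and its input comparison 2.03 ± 0.23. For his-45 the difference was negative, at -1.46 ± 0.34. His-72 was at -2.04 ± 0.31.

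**Figure D4:**
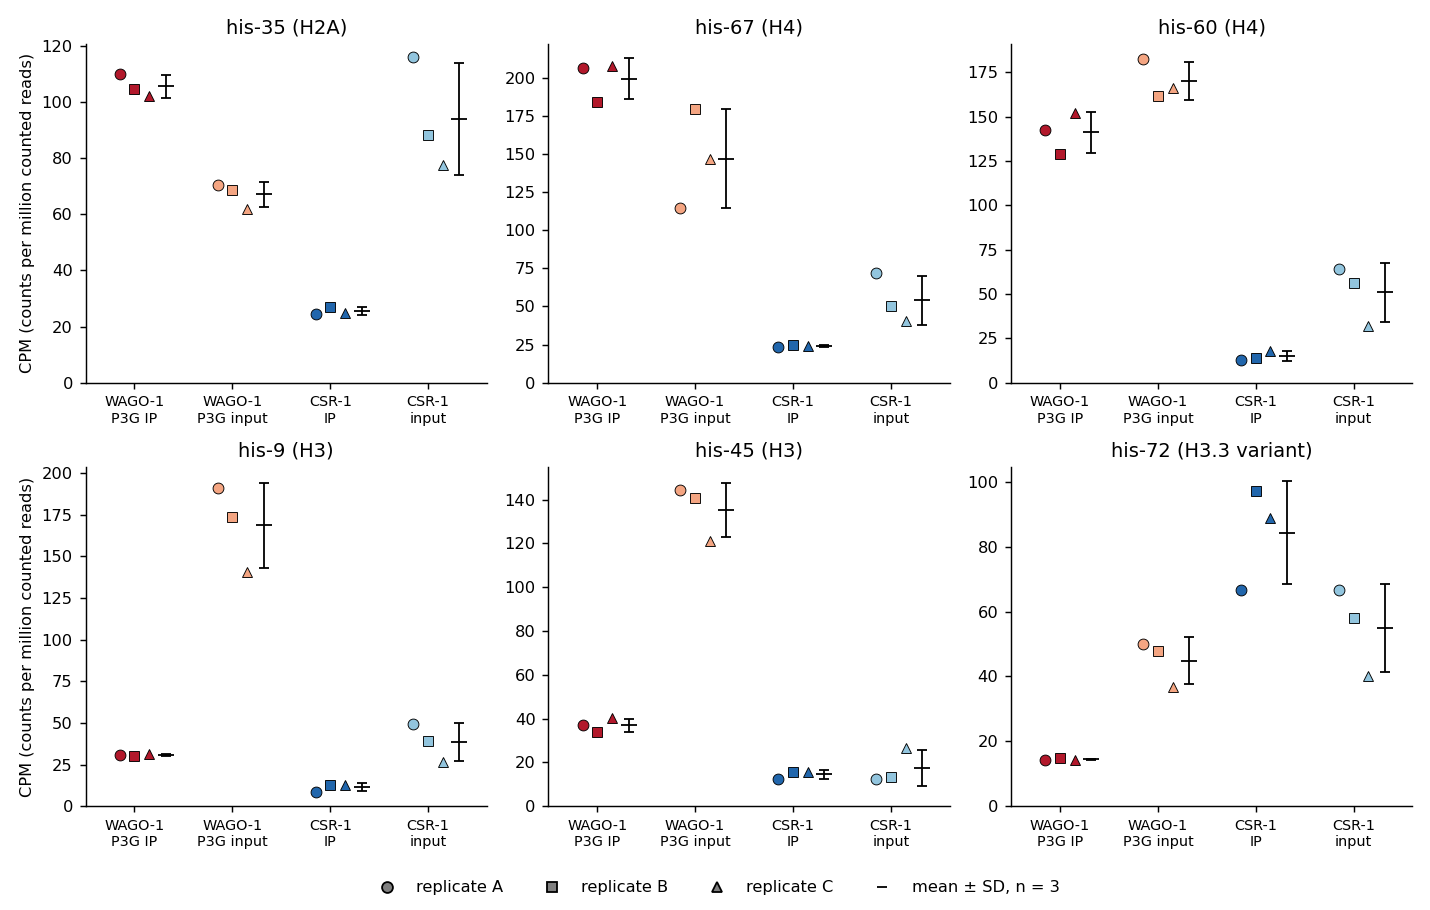
CPM of 6 histone genes in each library of the 4 groups, with mean ± SD beside the points. His-9 and his-45 peak in the WAGO-1 P3G inputs. By mean, his-72 is lowest in the WAGO-1 P3G IPs, at 14.2 to 14.7 CPM, and the other genes shown are lowest in the CSR-1 IPs.

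Opposite IP calls made up a smaller share of the tested histone genes than of all tested features. The median tested member had 12.5 counts summed over the CSR-1 inputs and 34.5 over the WAGO-1 P3G inputs. Whether such low counts made for fewer calls was not tested. Lower in the CSR-1 IPs and higher in the WAGO-1 P3G IPs, each over its own input, were 5 of 64 members, his-4, his-24, his-35, his-37 and his-67, against 20.2% of all tested features. Higher in the CSR-1 IPs and lower in the WAGO-1 P3G IPs were 2 of 64, his-18 and his-72, against 18.9%. His-18 is weakly placed there, since its WAGO-1 P3G call ended in 14 of 19 alternatives (log2 of -0.67 to -0.06 where it ended). A further 8 of 64 were called lower in both, against 6.0% of all tested features: his-9, his-13, his-19, his-25, his-42, his-43, his-44 and his-70, of which 6 lie in the chromosome II cluster. Of these, the WAGO-1 P3G call ended for his-70 in 16 of 20 alternatives and for his-44 in 8 of 19. His-19 and his-42 reached the filter level in all 3 libraries of the WAGO-1 P3G inputs alone. His-37, an H4 gene named here after its values were seen, had 41.0 ± 0.987 CPM in the WAGO-1 P3G IPs and 43.6 ± 6.25 CPM in the WAGO-1 P3G inputs, so its call (log2 0.50 ± 0.22) has the opposite direction on CPM.

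Histone genes sit in groups on the chromosomes, and members closer than 20000 bp were taken as one cluster. The largest, 13 genes on chromosome II at 13817760 to 13828697 (ce11), had 10 of 13 called lower in the CSR-1 IPs, with a median log2 of -1.52. Over all tested features 33.6% were called lower there. In the clusters of 8 and 4 genes on chromosome IV, at 11324056 to 11341703 and 11400415 to 11407427, the medians were 0.08 and -0.05, with 1 and 0 called lower. In the inputs the WAGO-1 P3G to CSR-1 medians of these 3 clusters were 1.89, 2.42 and 2.49, and 10 of 13, 7 of 8 and 4 of 4 were called higher. Higher calls there were 19.7% of all tested features and 45 of the 64 tested members, so most of the block shared this direction. The ratios of their summed CPM there were 4.02, 5.60 and 5.60, and the CSR-1 inputs enter both comparisons. Summed, the chromosome II cluster had 59.96 ± 11.2 CPM in the CSR-1 IPs against 189 ± 20.4 CPM in the CSR-1 inputs, and the larger chromosome IV cluster 64.7 ± 6.96 against 81.9 ± 27.0 CPM. The difference between clusters was not tested, and the smaller chromosome IV cluster had 44 counts in all in the CSR-1 inputs. Among clusters of at least 4 members, these chromosome IV clusters had the highest medians in the CSR-1 IPs. The remaining chromosome IV clusters, starting at 7485834 and 8331044, had -0.77 and -0.96, each with 2 of 4 tested called lower. A chromosome V cluster at 8889488 to 8898539 had -1.83, below that of chromosome II. Other chromosome V clusters of that size had -0.67, -1.09 and -0.91. On chromosome V at 9544659 to 9547607 lie his-35, his-37 and his-41, all called higher in the difference of enrichments and none called higher in the WAGO-1 P3G inputs over the CSR-1 inputs. Over all tested features 33.9% were called higher in that difference.

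**Figure D5:**
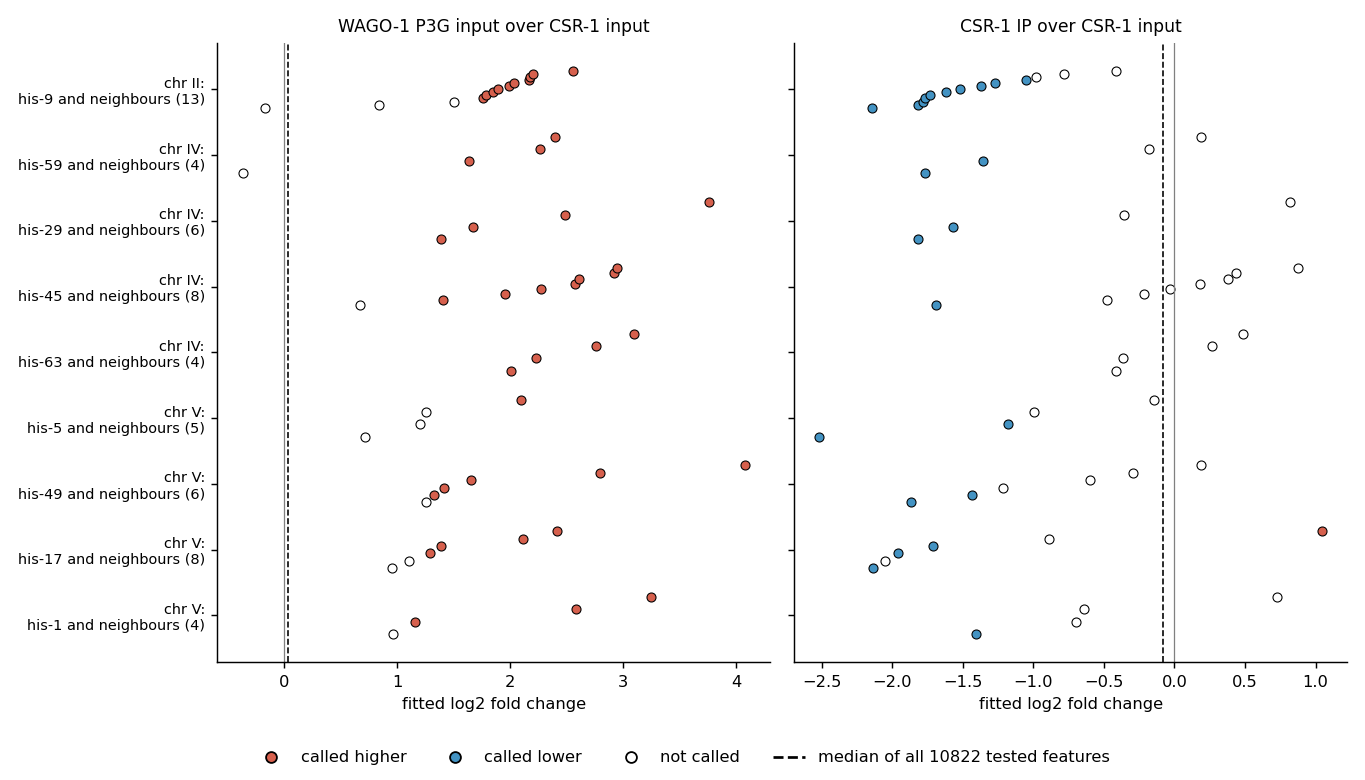
Fitted log2 fold changes of tested histone genes in the 9 genomic clusters with at least 4 members, each named by its first gene with the number of members in parentheses. The left panel is WAGO-1 P3G input over CSR-1 input and the right panel CSR-1 IP over CSR-1 input, where the his-9 cluster has 10 genes called lower and the his-45 cluster 1.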

How the data were processed

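The deposited table holds raw counts that the authors made per gene identifier and interval; per the submitters' processing notes, cutadapt 2.3, Bowtie 1.2.3, SAMtools 1.9, HTSeq 0.11.2 and build ce11 were used, with no roles given. For strand, multiple alignments and annotation, the settings are not given in the sources at hand. Reads on no named feature (19.9% to 74.1% of a library) were left out. Titles, sample names and antibody fields set the groups, since the opening text of some descriptions contradicts them.

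Counts were tested with edgeR 4.0.16 (R 4.3.3; limma 3.58.1) over all 12 libraries, with filterByExpr, TMM, 4 group means, 8 residual degrees of freedom and Benjamini-Hochberg adjustment over all features. SEs are the log2 value divided by the square root of F. The code was tested on simulated data. DESeq2 1.42.0, other scalings and filters, thinning, a replicate block and leaving out libraries were the alternatives.

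Classes come from RefSeq WBcel235 lengths and, for variants, general knowledge. Members and lists were chosen with earlier results of these data known. Named genes are the 3 with the highest mean CPM in each class and, in each comparison, the 2 with the largest and the 2 with the smallest log2. Lists of other histone-related, germline, muscle and hypodermis genes gave no values, because 0 identifiers matched a symbol.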

Additional observations from a re-analysis of the deposited data

Results flagged for a closer look

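For 14 of the named histone genes the enrichment over input differed between the strains by the interaction test (edgeR, adjusted p under 0.05), as WAGO-1 P3G minus CSR-1 in log2. Over all tested features 73.9% differed so, and some of these genes were named for the size of this difference. It was higher in WAGO-1 P3G for his-24 (3.35), his-41 (2.96), his-35 (2.71), his-39 (2.44), his-4 (2.14), his-22 (1.89), his-67 (1.77), his-60 (1.68), his-70 (1.25) and his-64 (0.88). It was lower for his-72 (-2.04), his-18 (-1.74), his-45 (-1.46) and his-48 (-1.04). The call for his-48 ended in 16 of 19 alternatives, that for his-64 in 3 of 19 and that for his-39 in 2 of 12.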

How the results depend on the processing

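Input depth limits single members, and all counts below are of members called. Of 2073 values of named genes under alternatives, 1917 kept their call or their lack of one, 110 lost the call, 45 gained it and 1 reversed: his-64 in WAGO-1 P3G IP over WAGO-1 P3G input, -0.0803 on library totals. For CSR-1 IP over CSR-1 input, 1 was higher with DESeq2 size factors, library totals, identifiers alone, DESeq2 or only the groups compared, and 0 after thinning; 12 were lower with no filter, 16 with only the groups compared and 13 after thinning. For WAGO-1 P3G IP over WAGO-1 P3G input, 3 were higher on library totals and 12 with no filter; 43 were lower on totals, 6 with no filter and 7 after thinning. For WAGO-1 P3G input over CSR-1 input, 22 were higher after thinning, and 1 was lower with DESeq2 size factors, totals, no filter, DESeq2 or thinning. For WAGO-1 P3G IP over CSR-1 IP, 26 were higher after thinning. For the difference of enrichments, 11 were higher after thinning; 3 were lower with DESeq2 size factors, no filter, identifiers alone or DESeq2, and 2 after thinning. Thinning left 27 members tested, which bounds its counts; no filter tested 71, and the cause of the other changes was not tested.

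On library totals the share of all calls that were higher was 42.6%, against 52.8% with TMM, for CSR-1 IP over CSR-1 input, and 28.7%, against 50.6%, for WAGO-1 P3G IP over WAGO-1 P3G input. The block's log2 ratio of CSR-1 IP over CSR-1 input was -1.96 on counted reads, -1.15 on all reads, -1.54 with TMM and -1.14 without his-24. That of WAGO-1 P3G IP over WAGO-1 P3G input was -0.04, 1.31, 0.56 and -0.83, and that of WAGO-1 P3G input over CSR-1 input was 0.12 on counted reads, -0.57 on all reads and 1.60 without his-24.

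Leaving out 1 library gave 1 to 3 higher and 19 to 26 lower for CSR-1 IP over CSR-1 input, 7 to 11 and 8 to 23 for WAGO-1 P3G IP over WAGO-1 P3G input, 39 to 42 and 1 to 2 for WAGO-1 P3G input over CSR-1 input, 47 to 64 and 1 for WAGO-1 P3G IP over CSR-1 IP, and 15 to 19 and 3 to 6 for the difference. The low of 19 was without CSR-1 input B; members lower in the difference numbered 3 without any one of 8 libraries (all but WAGO-1 P3G input C, CSR-1 IP C and CSR-1 inputs A and B); those lower in WAGO-1 P3G IP over WAGO-1 P3G input numbered 8 to 17 without any one library that was not a CSR-1 IP. It changed how many members were tested, 49 or 69. The block's log2 ratios spanned -2.01 to -1.87, -0.0811 to 0.0038, 0.06 to 0.19 and 1.94 to 2.09.

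With a replicate block the counts were 2 and 30, 8 and 27, 45 and 2, 59 and 1, and 16 and 7. Correlations between IP and input libraries were taken over the deviations of log CPM from each group's mean, and not over the levels themselves. In these deviations, IP and input of the same letter correlated by 0.04 to 0.30 for CSR-1 and -0.01 to 0.02 for WAGO-1 P3G. They correlated best with each other for CSR-1 A and B but not C. The deviations of CSR-1 IP and input libraries of different letters correlated by -0.24 to 0.10. The letters were not treated as pairs in the main fit, and whether CSR-1 IP and input of one letter share material was not tested.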
